A study of Homo sapiens with 5 samples.

Results

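The genes described here are the extracellular matrix and adhesion genes of SW620 cells: the collagens, the laminins, fibronectin (FN1), tenascin C (TNC) and the integrins. They were chosen by gene symbol alone, as every row named COL, LAMA, LAMB or LAMC with its chain number, every numbered integrin alpha or beta chain and ITGAV, plus FN1 and TNC. This gave 78 of 25343 gene rows, of which 58 code for matrix proteins and 20 for receptors. SW620 is a human colon carcinoma line, and all 5 libraries come from cells of the genotype tet-MUC1shRNA, in which a short hairpin RNA (shRNA) against the mucin gene MUC1 is under tetracycline control. The 2 pos libraries (replicates 1 and 3) were compared with the 3 neg libraries (replicates 1, 2 and 3). The labels state that cells received doxycycline, which switches on such an shRNA, or vehicle, without saying which of the names pos and neg stands for which, so the names are kept. The labels do not say whether the line is 1 clone. A control shRNA was not analysed here.

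Integrins are receptors made of an alpha and a beta chain that sit in the plasma membrane and tie the cytoskeleton to the matrix outside. Epithelial cells rest on a basement membrane built from laminin trimers, each with an alpha, a beta and a gamma chain, and from a network of type IV collagen. The integrin of ITGA6 with ITGB4 binds laminin in hemidesmosomes, the anchoring junctions of epithelia, while ITGB1 pairs with many alpha chains to bind laminin, collagen or fibronectin. Fibrillar collagens and fibronectin are made mostly by fibroblasts in tissue.

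Between 10888704 and 14137678 reads were counted per library. MUC1 had 27 and 13 reads in pos against 176, 252 and 218 in neg (adjusted p = 0.0270, edgeR quasi-likelihood test over all genes). Of 10 colon epithelial markers EPCAM, KRT8, KRT18, KRT19 and VIL1 had at least 1358 reads in every library, CDH1 at least 1022 and CDX2 at least 224. The others were low or nearly absent, with at most 1 read for CDX1, 10 for LGALS4 and 31 for KRT20 in any library. Of 7 endothelial markers VWF had 3 and 14 reads in pos against 54, 61 and 32 reads in neg, while PECAM1, CDH5, KDR, TEK, ERG and CLDN5 had at most 8 reads in any library, and 4 of 7 leukocyte and blood markers, PTPRC, CD3E and HBB among them, had none. Among 11 fibroblast markers FAP and TWIST1 had no read and DCN and PDGFRA at most 2, while VIM and S100A4 had at least 2809 reads in every library and PDGFRB, LUM, THY1, ACTA2 and TAGLN between 16 and 129. The 2 pos libraries differed more than neg libraries did. Their log2 CPM (counts scaled to library size, TMM-normalised) correlated at Pearson r = 0.912 across genes, against 0.983 to 0.993 among neg pairs. Pos replicate 3 held fewer reads from long transcripts. With tested genes cut into 10 equal groups by length, its log2 ratio to neg had a median of -1.37 in the longest group (median 9430 nt) and 1.38 in the shortest. In pos replicate 1 these were -0.32 and 0.43. The members' transcripts are long (median 5650 nt over the 47 tested, against 3242.5 nt over all tested genes). For many members results are therefore given also after length correction. This comes from a fit in which each library's own trend of log2 CPM with transcript length was taken out.

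Before length correction matrix and adhesion genes were mostly lower in pos, with 38 of 47 tested members at a log2 fold change below 0. Their median was -0.68 before length correction and -0.15 after it, beside -0.05 and 0.02 for all tested genes. At the lengths of these members the trend alone, relative to neg, had a median of -0.90 for replicate 3 of pos and -0.18 for replicate 1. Since the trend fell with length in both pos libraries, length correction also takes out any difference between groups that varies with length. A technical trend and such a difference cannot be told apart here. Of the 78 members 47 had enough reads to be tested, and 11 of these fell and 1 rose at an adjusted p of 0.05 (edgeR, two-sided, Benjamini-Hochberg over 13604 genes), beside 4.13% lower, 5.06% higher and 9.20% in either direction among all genes tested. In such bulk samples fewer cells making a transcript and less of it per cell cannot be told apart. Of the 31 matrix genes tested 9 fell and 0 rose (DESeq2 called 11 lower and 1 higher, beside 9.33% lower and 11.6% higher among all genes it tested). Of the 16 receptor genes tested 2 fell and 1 rose. The median log2 fold change (pos over neg) was -0.68 for matrix genes and -0.74 for receptor genes, beside -0.05 for all tested genes. After length correction 11 members were lower and 3 higher, beside 6.67% lower and 7.29% higher among all genes. The medians were then -0.23 for matrix genes, -0.14 for receptor genes and 0.02 for all tested genes. Scaled by library size alone, 0 members were higher and 10 lower (148 higher and 458 lower among all genes, against 689 and 562), at medians of -0.998 for matrix genes, -1.06 for receptor genes and -0.41 for all tested genes. Of the 12 members called, 9 were also called after length correction, and the 3 that were not were COL1A1, LAMA5 and ITGA5. COL6A3, COL17A1, ITGA11 and COL4A1 entered the test only through their reads in neg, since their mean in pos was under 10 reads, and so had to be lower in pos. Without these 4 the counts were 8 lower and 1 higher of 43 members tested (7 lower of 28 matrix genes, and 1 lower and 1 higher of 15 receptor genes), at medians of -0.56 for matrix genes and -0.68 for receptor genes. With a filter of 5 CPM in 2 libraries COL17A1, ITGA11 and ITGB2 were not called. Leaving out neg replicate 1, 2 or 3 left 0 members called in edgeR, with 18 members at an unadjusted p under 0.05 in each case, against 24 in all 5 libraries.

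In both pos libraries 30 of the 47 tested members lay below all neg libraries and 5 lay above, while 12 overlapped. Among all tested genes 29.3% lay below and 26.7% above. The matrix genes summed to 1111 and 1045 CPM in pos replicates 1 and 3 against 1755, 1784 and 1686 CPM in neg replicates 1, 2 and 3. The receptor genes summed to 1729 and 1152 CPM in pos against 2677, 2705 and 2909 CPM in neg. Both sums were lower in each pos library than in any neg library. Neither the sums nor the counts of overlap were corrected for length. The tested members had a median length of 5650 nt, against 3242.5 nt over all tested genes.

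**Figure D1:**
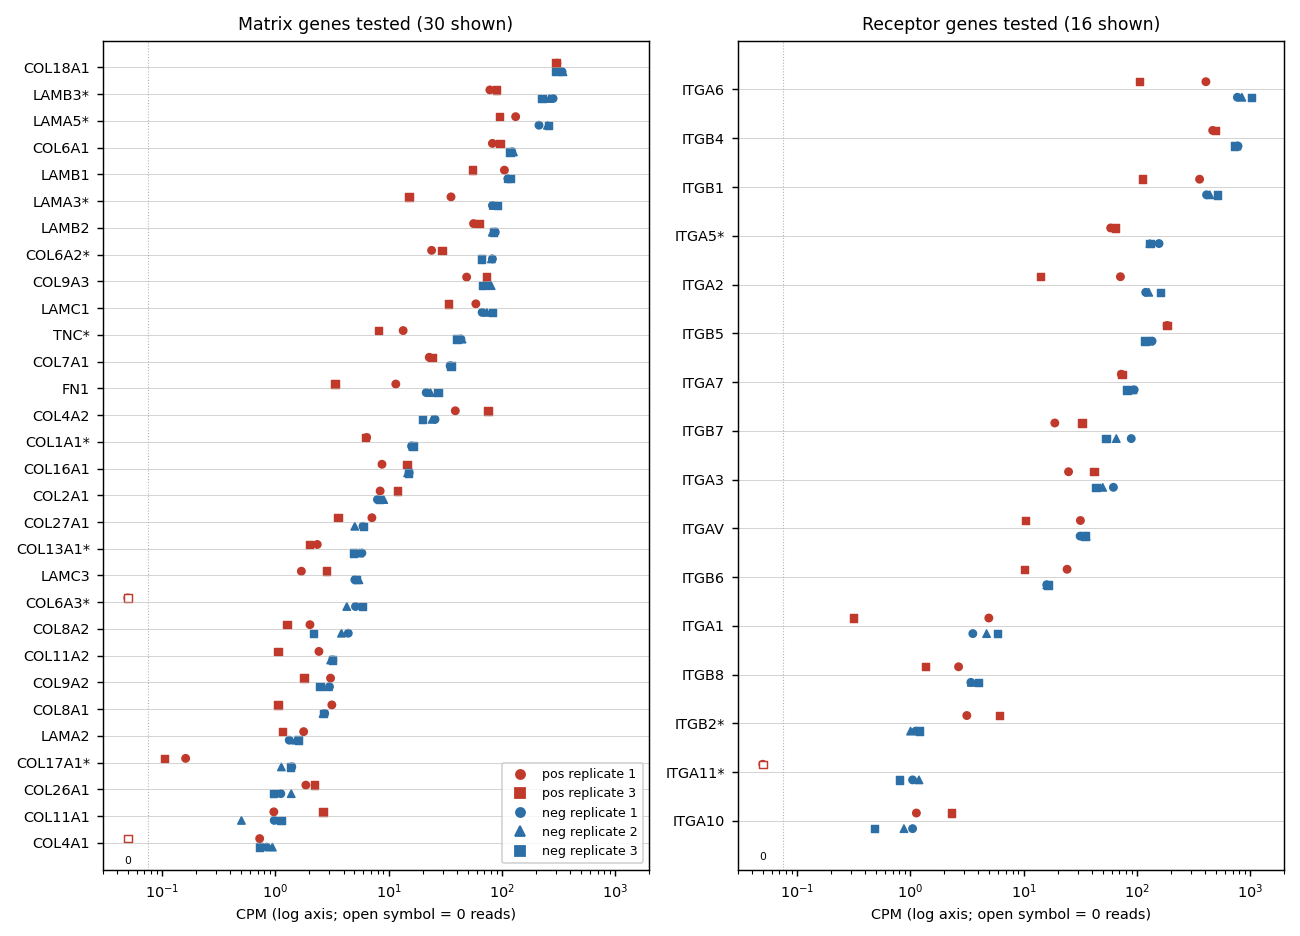
Level of tested matrix genes (left) and receptor genes (right) in CPM on a log axis, with 1 symbol per library (pos in red, above neg in blue on each line) and an asterisk for genes past an adjusted p of 0.05. The pos symbols of LAMB3, COL6A2, COL1A1, TNC and ITGA5 lie left of all neg symbols, those of COL4A2, ITGB5 and ITGB2 lie right of them, and COL6A3 and ITGA11 have open symbols at 0 in both pos libraries.

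Of the 44 collagen genes 20 were tested, 5 fell and none rose, beside 4.13% lower and 5.06% higher among all genes tested. Of these 5, COL6A3 and COL17A1 entered the test only through neg and so had to be lower in pos. Type VI collagen, a beaded filament in the matrix around many cells, is assembled from chains of COL6A1, COL6A2 and a longer chain. COL6A2 had 23.95 and 29.5 CPM in pos against 82.4, 80.7 and 66.3 CPM in neg. Both pos libraries were well below every neg library and lay close together. It fell 2.86-fold (log2 fold change -1.52, SE 0.22, adjusted p = 0.0326), and after length correction the value was -1.37 (adjusted p = 0.0168). COL6A3, which codes for the long chain, had 0 and 0 reads in pos against 73, 68 and 73 reads in neg. At a limit of 3 reads per pos library it was at least 18.2-fold lower (mean 5.08 ± 0.797 CPM in neg, SD, n = 3; adjusted p = 0.0263). COL6A1 had 82.4 and 95.9 CPM in pos against 122, 126 and 118 CPM in neg, which did not overlap. Its log2 fold change of -0.45 (SE 0.18) did not pass the test (adjusted p = 0.142), and after length correction it was -0.12 (adjusted p = 0.725). The ratio of COL6A2 to COL6A1, per kb of transcript, was 0.355 and 0.375 in pos against 0.822, 0.779 and 0.687 in neg. COL6A1 (chromosome 21, 45981770 to 46005050, plus strand) and COL6A2 (chromosome 21, 46098112 to 46132848, plus strand; GRCh38, GENCODE 44) lie on the same strand.

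Type IV collagen, the sheet-forming collagen of basement membranes, is mostly built from COL4A1 and COL4A2 chains in the same trimer. The genes lie head to head on chromosome 13 and share 1 promoter region, which is printed here because their levels differed widely. The window below runs from 250 bases before to 50 bases after the RefSeq start of COL4A2 (chr13:110307034-110307333, plus strand, GRCh38.p14), and the capitals mark the 128 bases from the start of COL4A1, on the minus strand, to the start of COL4A2, both included.
COL4A2: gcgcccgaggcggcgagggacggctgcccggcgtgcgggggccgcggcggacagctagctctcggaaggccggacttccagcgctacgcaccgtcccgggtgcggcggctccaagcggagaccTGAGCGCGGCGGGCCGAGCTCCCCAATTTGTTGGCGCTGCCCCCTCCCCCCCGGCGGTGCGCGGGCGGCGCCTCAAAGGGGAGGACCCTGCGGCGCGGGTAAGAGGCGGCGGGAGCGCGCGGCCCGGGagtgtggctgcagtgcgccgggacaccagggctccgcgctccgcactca
The starts are 127 bases apart, and 226 of the 300 bases are also in the window of COL4A1. COL4A2 had 479 and 712 reads in pos against 367, 385 and 249 reads in neg, which is 38.8 and 75.1 CPM against 25.7, 24.2 and 20.01 CPM. Both pos libraries were above all neg libraries, with pos replicate 3 highest. The 2.44-fold difference (log2 fold change 1.29, SE 0.32) narrowly missed the threshold in edgeR (adjusted p = 0.0557), passed it in DESeq2 (adjusted p = 0.00590) and passed it after length correction (2.08, adjusted p = 0.0382). It was 0.71 without pos replicate 3 and 1.73 without pos replicate 1. COL4A1 had 9 and 0 reads in pos against 12, 15 and 9 reads in neg, so that COL4A2 exceeded it 26- to 31-fold per kb in neg libraries and 54-fold in pos replicate 1. Exons of COL4A2 overlap those of COL4A2-AS1 on the opposite strand, which had at most 3 reads in any library. The remaining type IV genes COL4A3, COL4A4, COL4A5 and COL4A6 were not tested.

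Of 11 fibrillar collagen genes, the rope-forming collagens of connective tissue, 5 were tested and COL1A1 fell. COL1A1 had 6.39 and 6.22 CPM in pos against 15.9, 16.3 and 16.4 CPM in neg, with no overlap and a narrow spread in each group. It fell 2.57-fold (log2 fold change -1.36, SE 0.21, adjusted p = 0.0340), but after length correction the value was -0.78 and not past the threshold (adjusted p = 0.0876). Its partner chain gene COL1A2 and COL3A1 had no read in any library. COL2A1, the cartilage collagen gene, had 8.42 and 11.9 CPM in pos against 7.97, 9.05 and 8.28 CPM in neg, overlapping between groups.

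Both tested transmembrane collagen genes fell, although COL17A1 entered the test only through neg and so had to be lower in pos. COL13A1, found at cell adhesion sites, had 2.35 and 2.003 CPM in pos against 5.80, 5.53 and 4.90 CPM in neg (log2 fold change -1.31, SE 0.28, adjusted p = 0.0457, and -1.25 after length correction, adjusted p = 0.0328). COL17A1, a component of hemidesmosomes, had 2 and 1 reads in pos against 20, 18 and 17 reads in neg. From these few reads it was 9.39-fold lower, with an exact 95% counting interval of 3.05 to 46.9 that covers counting error only (adjusted p = 0.0386). The 2 genes were low in every library, at 5.80 CPM or less.

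COL18A1, a basement membrane collagen whose fragment endostatin blocks vessel growth, was the most abundant collagen gene per kb in both groups. It had 305 and 301 CPM in pos against 339, 346 and 299 CPM in neg, which overlapped (log2 fold change -0.11, SE 0.18, adjusted p = 0.670). Its exons overlap those of SLC19A1 on the opposite strand, and whether strand was used in counting is not given in the sources used here. COL7A1, the anchoring fibril collagen under epithelia, had 22.8 and 24.04 CPM in pos against 34.9, 35.8 and 35.6 CPM in neg. The groups were far apart for their spread, yet the log2 fold change of -0.60 (SE 0.19) did not pass (adjusted p = 0.0847), and after length correction it was 0.33 (adjusted p = 0.519). COL9A3 and COL16A1, of the fibril-associated collagens, had log2 fold changes of -0.30 (SE 0.24) and -0.36 (SE 0.28). The 2 pos libraries of COL9A3 had 48.8 and 72.6 CPM against 76.4, 80.3 and 67.0 CPM in neg, and those of COL16A1 had 8.74 and 14.5 CPM against 15.2, 14.7 and 14.9 CPM. Pos replicate 1 was the lowest library for both genes. Exons of COL9A3 overlap those of TCFL5 on the opposite strand, which had 240 and 218 reads in pos against 400, 433 and 371 reads in neg. The 7 other tested collagen genes, COL8A1, COL8A2, COL9A2, COL11A1, COL11A2, COL26A1 and COL27A1, were all below 10 CPM and none passed.

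Of 12 laminin genes 9 were tested, 3 fell and none rose, and after length correction 2 were lower. Over all genes tested 4.13% fell and 5.06% rose, and after length correction 6.67% were lower. LAMB3, the beta chain of the hemidesmosomal laminin formed with LAMA3, had 78.2 and 89.2 CPM in pos against 282, 261 and 226 CPM in neg. The pos libraries were close together and far below every neg library. It fell 3.07-fold (log2 fold change -1.62, SE 0.21, adjusted p = 0.0316), and by 1.33 on the log2 scale after length correction (adjusted p = 0.0193). LAMA3, its alpha chain, had 35.5 and 15.2 CPM in pos against 82.4, 83.6 and 91.6 CPM in neg. Both pos libraries were below neg, pos replicate 3 by more, and the log2 fold change was -1.76 (SE 0.38, adjusted p = 0.0464), -1.30 without pos replicate 3, -2.45 without pos replicate 1 and -0.98 after length correction (adjusted p = 0.0181).

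The promoters of LAMA3 and LAMB3, which fell together, are shown from RefSeq (GRCh38.p14), 250 bases before to 50 bases after a start. Capitals mark matches on either strand to the GC box (GGGCGG), the AP-1 motif (TGANTCA), the E-box (CACGTG) or the TATA box (TATAAA). The LAMA3 window is chr18:23872770-23873069 on the plus strand and the LAMB3 window chr1:209652376-209652675 on the minus strand.
LAMA3: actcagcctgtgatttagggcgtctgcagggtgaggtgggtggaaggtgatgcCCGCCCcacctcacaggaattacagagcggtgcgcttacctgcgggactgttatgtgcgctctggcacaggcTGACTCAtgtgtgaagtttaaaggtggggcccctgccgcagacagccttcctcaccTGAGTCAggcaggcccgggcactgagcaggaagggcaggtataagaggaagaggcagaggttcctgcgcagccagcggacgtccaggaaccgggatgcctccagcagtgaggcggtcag
LAMB3: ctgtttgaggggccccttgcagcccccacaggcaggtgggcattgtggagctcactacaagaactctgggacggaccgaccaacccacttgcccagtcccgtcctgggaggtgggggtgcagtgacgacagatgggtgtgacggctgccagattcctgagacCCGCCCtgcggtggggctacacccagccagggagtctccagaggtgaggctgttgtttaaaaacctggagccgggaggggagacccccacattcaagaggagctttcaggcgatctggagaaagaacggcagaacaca
The LAMA3 window held 2 AP-1 matches and 1 GC box match, and the LAMB3 window held 1 GC box match. No matches overlapped. Among 35116 windows of the same length 7.71% held an AP-1 match, 45.0% a GC box, 7.26% an E-box and 11.5% a TATA box. The start used for the LAMA3 window lies 183567 bases downstream of the start of the canonical transcript of GENCODE 44, whose length of 10651 nt was used for LAMA3, so that its length correction is uncertain. LAMB3 has 3 RefSeq windows, of which the one at its GENCODE canonical start is printed.

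The chains of the broadly expressed basement membrane laminin, LAMA5, LAMB1 and LAMC1, were also measured. LAMA5 had 132 and 94.7 CPM in pos against 212, 252 and 258 CPM in neg. The groups did not overlap and the gene fell (log2 fold change -1.09, SE 0.23, adjusted p = 0.0457), but its transcript is the longest of all tested members (11426 nt), and after length correction the log2 fold change was -0.13 (adjusted p = 0.703). LAMB1 had 105 and 55.0 CPM in pos against 113, 113 and 119 CPM in neg, and LAMC1 had 58.8 and 33.8 CPM in pos against 66.8, 73.6 and 82.8 CPM in neg. Neither passed (adjusted p = 0.258 and 0.153), and after length correction they were at -0.05 and 0.03. LAMB2, another beta chain, had 56.2 and 62.6 CPM in pos against 87.3, 82.2 and 84.3 CPM in neg (log2 fold change -0.51, SE 0.18, adjusted p = 0.109). LAMC3, a gamma chain at 1.70 and 2.85 CPM in pos against 5.03, 5.47 and 5.22 CPM in neg, did not pass in edgeR (adjusted p = 0.0660). Its log2 fold change was -1.22, and after length correction -0.42 (adjusted p = 0.577). LAMA2, at 22 and 11 reads in pos against 19, 24 and 20 reads in neg, overlapped between groups. LAMB1 shares exon sequence with DLD on the opposite strand. The ratio of LAMB3 to LAMB1 per kb was 1.05 and 2.28 in pos against 3.53, 3.25 and 2.67 in neg, and that of LAMB1 to LAMC1 was 2.51 and 2.28 in pos against 2.36, 2.16 and 2.02 in neg. The first ratio did not overlap between groups and the second did.

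Of the adhesive glycoproteins, TNC fell and FN1 was low without passing the test in edgeR. TNC, a matrix protein of wounds and tumour stroma, had 13.4 and 8.12 CPM in pos against 43.4, 44.4 and 39.9 CPM in neg. It fell 3.94-fold with no overlap (log2 fold change -1.98, SE 0.28, adjusted p = 0.0326), and by 1.24 on the log2 scale after length correction (adjusted p = 0.0215). FN1, the ligand of the integrin of ITGA5 with ITGB1, had 11.6 and 3.37 CPM in pos against 21.5, 23.4 and 27.2 CPM in neg. All pos values were below all neg values, but the pos libraries differed from each other and the log2 fold change of -1.67 (SE 0.51) missed the threshold in edgeR (adjusted p = 0.0819). It passed in DESeq2 (adjusted p = 0.00590) and after length correction (-1.05, adjusted p = 0.0398). Without pos replicate 3 it was -1.08 and without pos replicate 1 it was -2.78.

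**Figure D2:**
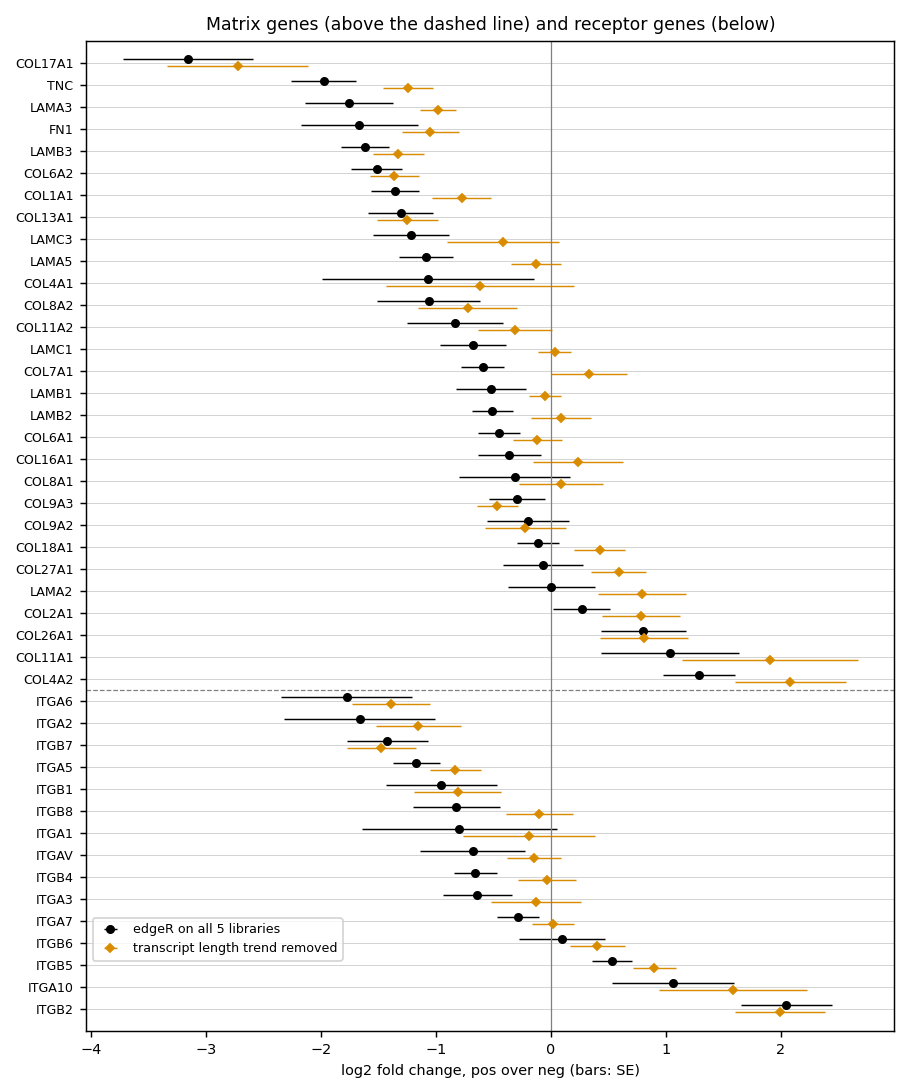
Log2 fold change of pos over neg with its SE for the tested matrix genes (above the dashed line) and receptor genes (below it), from edgeR on all 5 libraries (black) and after length correction (orange). COL6A3 and ITGA11, at 0 reads in pos, are left out. LAMA5 moves from -1.09 to -0.13 and COL4A2 from 1.29 to 2.08, while COL6A2 stays at -1.52 and -1.37.

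Among the 12 integrin alpha genes 9 were tested, and ITGA5 fell, as did ITGA11, which entered the test only through neg. Over all genes tested 4.13% fell and 5.06% rose. ITGA5, the fibronectin receptor chain, had 58.7 and 64.8 CPM in pos against 157, 130.1 and 130.4 CPM in neg. It fell 2.25-fold with no overlap (log2 fold change -1.17, SE 0.20, adjusted p = 0.0381), and was just outside the threshold after length correction (-0.83, adjusted p = 0.0537). ITGA11, a receptor chain for fibrillar collagen, had 0 and 0 reads in pos against 15, 19 and 10 reads in neg, which is at least 3.63-fold lower at a limit of 3 reads per pos library (adjusted p = 0.0390).

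ITGA6, the laminin receptor chain, was the most abundant member per kb in neg (151 ± 22.1 CPM per kb, SD, n = 3) and ranked 4 in pos (43.97 ± 36.5 CPM per kb, SD, n = 2). It had 5018 and 1000 reads in pos against 11013, 13418 and 12694 reads in neg, which is 406 and 105 CPM against 770.1, 844 and 1020.3 CPM. Both pos libraries were below neg, and pos replicate 3 lay far below pos replicate 1. The log2 fold change of -1.78 (SE 0.57) did not pass in edgeR (adjusted p = 0.0909) and passed in DESeq2 (adjusted p = 0.00346) and after length correction (-1.39, adjusted p = 0.0435). Without pos replicate 3 it was -1.14, and without pos replicate 1 it was -3.01. In pos replicate 3 the log2 ratio of ITGA6 to the neg mean was -3.06, where the trend at its length of 5816 nt was -0.93. ITGA2, the collagen receptor chain, had a similar spread, with 71.5 and 14.02 CPM in pos against 119, 127 and 162 CPM in neg. Its log2 fold change of -1.67 (SE 0.65) did not pass in edgeR (adjusted p = 0.134) and passed in DESeq2 (adjusted p = 0.0170). After length correction it was -1.16 and did not pass (adjusted p = 0.0819). It was -0.96 without pos replicate 3 and -3.23 without pos replicate 1, both before length correction.

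ITGA3 and ITGA7, further laminin receptor chains, did not pass the test. ITGA7 had 72.8 and 73.6 CPM in pos against 94.5, 92.2 and 81.7 CPM in neg (log2 fold change -0.29, SE 0.18). ITGA3 had 24.9 and 41.6 CPM in pos against 62.0, 49.9 and 43.6 CPM in neg (log2 fold change -0.64, SE 0.30). Neither overlapped between groups. After length correction ITGA7 was at 0.014 and ITGA3 at -0.13 (adjusted p = 0.966 and 0.841). ITGAV, which pairs with several beta chains to bind vitronectin and fibronectin, had 31.7 and 10.4 CPM in pos against 31.5, 35.6 and 34.7 CPM in neg, and only pos replicate 3 was low. ITGA7 shares exon sequence with METTL7B on the opposite strand. ITGA1 had 61 and 3 reads in pos against 51, 75 and 73 reads in neg, and its exons overlap those of PELO on the same strand, so its reads are uncertain. ITGA10, another collagen receptor chain, had 14 and 22 reads in pos against 15, 14 and 6 reads in neg, and a log2 fold change of 1.06 (SE 0.53) that did not pass (adjusted p = 0.204, edgeR). ITGA4 and ITGA8 had no read, and ITGA9 had at most 8.

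Among the 8 integrin beta genes 7 were tested, ITGB2 rose and none fell, beside 5.06% higher and 4.13% lower among all genes tested. ITGB2, the beta chain of leukocyte integrins, had 39 and 58 reads in pos against 16, 16 and 15 reads in neg, which is 3.16 and 6.11 CPM against 1.12, 1.01 and 1.21 CPM. It was the only member called higher in edgeR, 4.13-fold (log2 fold change 2.05, SE 0.40, adjusted p = 0.0408), and was at 1.48 without pos replicate 3 and 2.51 without pos replicate 1. It was at 1.99 after length correction (adjusted p = 0.0274), and scaled by library size alone it did not pass. The leukocyte and blood markers summed to 47.7 and 62.5 CPM in pos against 59.4, 54.1 and 49.3 CPM in neg, most of it from CD68, at 445 and 443 reads in pos against 759, 747 and 543 reads in neg. CD14 had 0 and 17 reads in pos against 16, 20 and 9 reads in neg. Of the 3 markers tested LYZ rose (log2 fold change 1.27, SE 0.23, adjusted p = 0.0386, edgeR) and none fell. After length correction LYZ no longer passed (0.69, adjusted p = 0.0854) and CD68 was lower (-0.69, adjusted p = 0.0328).

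By group means ITGB4 and ITGB1 were the most abundant beta chain genes. In pos replicate 3, however, ITGB5 exceeded ITGB1, at 41.6 against 29.9 CPM per kb. ITGB4, the hemidesmosomal partner of ITGA6, had 466 and 492 CPM in pos against 779, 764 and 725 CPM in neg. The groups did not overlap and the pos libraries lay close together. The log2 fold change of -0.66 (SE 0.19) did not pass in edgeR (adjusted p = 0.0724) and passed in DESeq2 (adjusted p = 0.0352), and after length correction it was -0.04 (adjusted p = 0.931). ITGB1 had 357 and 112 CPM in pos against 411, 439 and 512 CPM in neg, with pos replicate 3 far below the rest (log2 fold change -0.95, SE 0.48, adjusted p = 0.210). Without pos replicate 3 its value was -0.38, and without pos replicate 1 it was -1.98. In pos replicate 3 its log2 ratio to the neg mean was -2.02, where the trend at its length of 3735 nt was -0.36.

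ITGB5, a partner of ITGAV that binds vitronectin, had 184.8 and 184.5 CPM in pos against 136, 129.9 and 118 CPM in neg. Both pos libraries were above every neg library and nearly equal. The log2 fold change of 0.53 (SE 0.18) did not pass in edgeR (adjusted p = 0.0972) or DESeq2 (adjusted p = 0.0919), and after length correction it was 0.90 and passed (adjusted p = 0.0306). ITGB7, the beta chain of gut-homing lymphocyte integrins, had 18.9 and 32.9 CPM in pos against 89.1, 65.8 and 53.3 CPM in neg. Its log2 fold change of -1.43 (SE 0.35) was just outside the threshold in edgeR (adjusted p = 0.0560), and it passed in DESeq2 (adjusted p = 0.00356) and after length correction (-1.48, adjusted p = 0.0300). ITGB7 shares exon sequence with ZNF740 on the opposite strand, which had 744 and 415 reads in pos against 943, 974 and 841 reads in neg. ITGB6, an epithelial partner of ITGAV, had 24.2 and 10.2 CPM in pos against 16.01, 16.03 and 16.5 CPM in neg, so that the pos libraries lay on either side of neg. ITGB8 had 2.67 and 1.37 CPM in pos against 3.43, 3.46 and 4.02 CPM in neg and did not pass (adjusted p = 0.178, edgeR). Its log2 fold change was -0.82, and after length correction -0.10 (adjusted p = 0.832). ITGB3 had at most 2 reads.

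**Figure D3:**
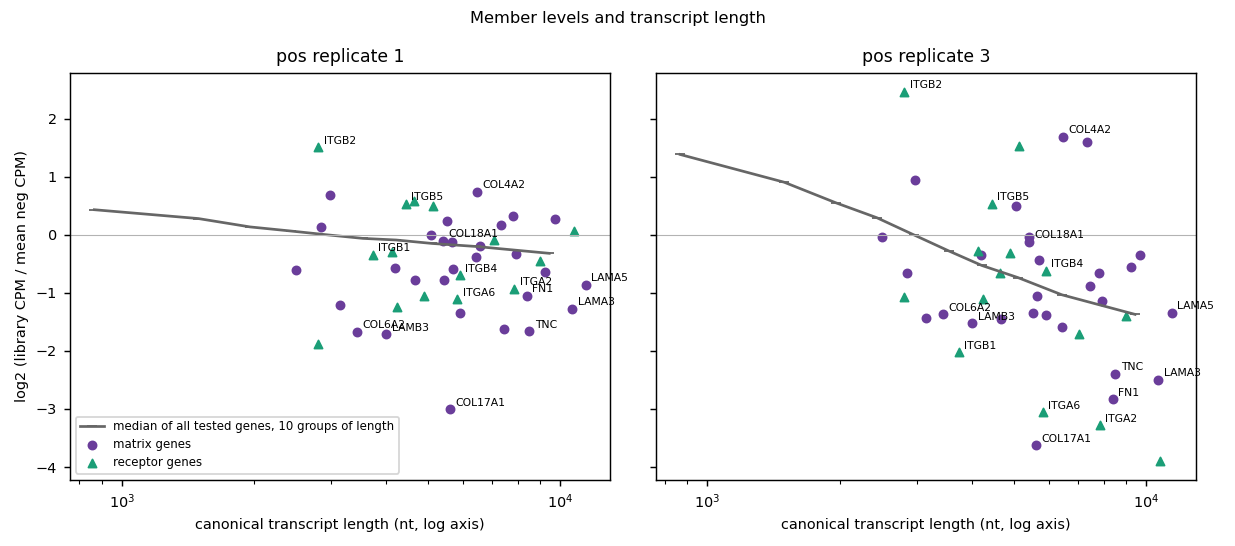
Log2 ratio of each pos library to the mean of the neg libraries (vertical axis) against canonical transcript length (log axis), for matrix genes (circles) and receptor genes (triangles), with the median of all tested genes in 10 equal groups of length as a grey line. The line runs from 0.43 to -0.32 in pos replicate 1 and from 1.38 to -1.37 in pos replicate 3. ITGA6, ITGA2 and ITGB1 lie far below it in pos replicate 3 and COL4A2 lies above it in both.

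Levels per kb of transcript place these chains in order, but dividing by length does not remove each library's own trend with length. In pos replicate 3 that trend, relative to neg, was 0.25 for COL9A3 (2497 nt) and -0.95 for ITGB4 (5896 nt). In pos the order was ITGB4 (81.2 ± 3.11 CPM per kb, SD, n = 2), ITGB1 (62.8 ± 46.4), COL18A1 (56.0 ± 0.571), ITGA6 (43.97 ± 36.5), ITGB5 (41.6 ± 0.0495) and COL9A3 (24.3 ± 6.75). In neg it was ITGA6 (151 ± 22.1 CPM per kb, SD, n = 3), ITGB4 (128 ± 4.72), ITGB1 (122 ± 13.8), LAMB3 (64.0 ± 7.07), COL18A1 (60.6 ± 4.64) and ITGA5 (32.7 ± 3.59). In neg the neighbours ITGB4 and ITGB1 differed by less than the spread of ITGB1, as did LAMB3 and COL18A1 by less than that of LAMB3. In pos the spreads of ITGB1 and ITGA6 covered each of their neighbours. The ratio of ITGA6 to ITGB4 per kb was 0.883 and 0.217 in pos against 1.001, 1.12 and 1.43 in neg, and that of ITGA6 to ITGB1 was 0.730 and 0.606 in pos against 1.20, 1.23 and 1.28 in neg. The ratio of ITGB5 to ITGB1 was 0.435 and 1.39 in pos against 0.278, 0.249 and 0.194 in neg. These 3 ratios did not overlap between groups, while the ratio of ITGB4 to ITGB1, at 0.827 and 2.79 in pos against 1.20, 1.10 and 0.898 in neg, lay on either side of neg. These ratios, and those of collagen and laminin chains above, are descriptions with no test and keep the trend with length.

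**Figure D4:**
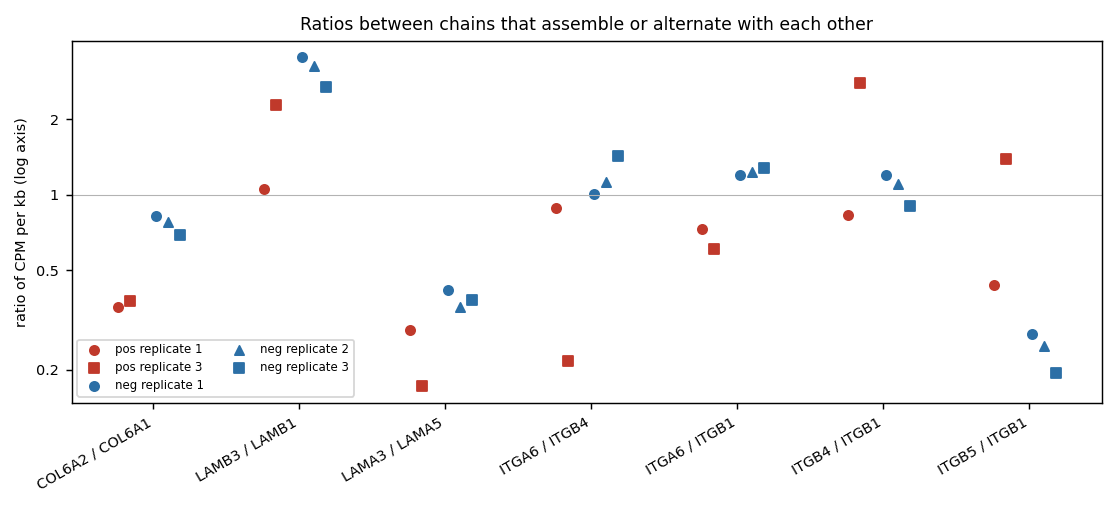
Ratio of CPM per kb between pairs of chains that assemble with or replace each other, on a log axis, with 1 symbol per library (pos in red, left; neg in blue, right). The ratio of COL6A2 to COL6A1 is 0.355 and 0.375 in pos and at least 0.687 in neg, and ITGA6 to ITGB4 is lowest in pos replicate 3 at 0.217.

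Genes that work with these chains were read from lists written by known role. The counts below stand beside 4.13% lower and 5.06% higher among all genes tested. Of 24 tested collagen-processing genes 4 fell and none rose, at a median log2 fold change of -0.09. P4HA1 and P4HA2, the catalytic chains of collagen prolyl hydroxylase, had 69.6 ± 29.0 and 20.8 ± 0.377 CPM in pos against 200 ± 7.28 and 45.3 ± 3.99 CPM in neg (SD, n = 2 pos and 3 neg). Their log2 fold changes were -1.52 (SE 0.30, adjusted p = 0.0420) and -1.12 (SE 0.20, adjusted p = 0.0386), from edgeR. After length correction P4HA1 was at -1.58 (adjusted p = 0.0231) and P4HA2 no longer passed (-0.74, adjusted p = 0.0697). LEPREL1, a collagen prolyl hydroxylase of another kind, fell (log2 fold change -1.74, SE 0.27, adjusted p = 0.0339; -1.60 after length correction), and the collagen cross-linking enzyme gene LOX, the remaining one, had 12 and 4 reads in pos against 48, 46 and 37 reads in neg. LOX, with a mean under 10 reads in pos, entered the test only through neg and so had to be lower in pos. Of 9 tested basement membrane partners none passed (median -0.45). HSPG2 (perlecan), the highest in mean CPM over all 5 libraries without regard to length, had 116 ± 103 CPM in pos and 276 ± 46.6 CPM in neg. In pos AGRN was higher, at 156 ± 26.4 CPM. Of 18 other matrix genes tested TGFBI rose and none fell (median 0.23). TGFBI, a secreted ligand of integrins, had 5170 and 5698 reads in pos against 3140, 3542 and 2386 reads in neg, and a log2 fold change of 1.27 (SE 0.23, adjusted p = 0.0386; 1.18 after length correction).

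Of 36 genes of the integrin adhesion machinery, all tested, 7 fell and none rose (median -0.26, against -0.05 after length correction, where 6 were lower and 2 higher). Over all genes tested 4.13% fell and 5.06% rose, and after length correction 6.67% were lower and 7.29% higher. TES, a focal adhesion protein, had 82.8 ± 13.4 CPM in pos against 229 ± 5.44 CPM in neg, and fell (log2 fold change -1.47, SE 0.20, adjusted p = 0.0326; -1.54 after length correction). PLEC (plectin), which links ITGB4 to keratins in hemidesmosomes, had 5245 and 2369 reads in pos against 13824, 19004 and 16532 reads in neg, and fell (log2 fold change -1.79, SE 0.32, adjusted p = 0.0386). After length correction it was at -0.76 (adjusted p = 0.0389). The focal adhesion gene TNS1 had 7 and 0 reads in pos against 88, 87 and 72 reads in neg (adjusted p = 0.0386). With a mean under 10 reads in pos, it entered the test only through neg and so had to be lower in pos. Of 10 tested matrix receptors other than integrins RPSA, a ribosomal protein gene whose product is also described as a laminin receptor, rose (log2 fold change 1.90, SE 0.39, adjusted p = 0.0443) and none fell, with 16266 and 26934 reads in pos against 10036, 8569 and 5405 reads in neg (median of the list -0.20). The RPSA value was 1.02 after length correction (adjusted p = 0.0197), 1.21 without pos replicate 3 and 2.40 without pos replicate 1. Among 8 tested epithelial markers CDX2 rose and CDH1 fell, and after length correction CDX2 and VIL1 were higher and CDH1 and KRT20 lower. KRT20, with 0 and 4 reads in pos, entered the test only through neg and so had to be lower in pos. Among 7 tested fibroblast markers S100A4 rose and none fell, at a log2 fold change of 2.38 (0.85 after length correction, adjusted p = 0.0255). The fibroblast markers summed to 935 and 2493 CPM in pos against 766, 680.5 and 724 CPM in neg, with FAP and TWIST1 at 0 in all libraries. Most of this came from S100A4, at 636 and 2057 CPM in pos against 305, 247 and 226 CPM in neg, and from VIM, at 278 and 416 CPM in pos against 443, 411 and 479 CPM in neg. VIM did not pass (log2 fold change -0.36, SE 0.24, adjusted p = 0.321), and after length correction it was lower (-0.67, adjusted p = 0.0433). The part of these markers in the matrix results was not tested.

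The 31 members not tested had at most 11 reads in any library. Of these 11 had no read at all, namely COL1A2, COL3A1, COL6A5, COL12A1, COL14A1, COL19A1, COL22A1, COL25A1, LAMA4, ITGA4 and ITGA8. The other 20 are 18 matrix and 2 receptor genes. Those with no read were not detectable at 3 reads, equal to 0.189 to 0.316 CPM per library.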

How the data were processed

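RNA-seq reads per gene were measured in 2 pos and 3 neg libraries of SW620 cells. The authors deposited a table of raw counts per gene symbol, with no normalization. Per the submitters' processing notes the tools were CASAVA 1.8.2, STAR 2.5.2b and DESeq2 1.24.0, with hg19 listed as build, while the labels' protocols name another (GRCh38). Not given in the sources used here are the counting tool and its strand setting. All 92 spike-in rows were at 0 and were left out with no effect on totals. Of 25343 genes 13604 passed filterByExpr (minimum count 10, total 15) and were tested with TMM scaling and the edgeR 4.0.16 quasi-likelihood test (R 4.3.3), two-sided, with Benjamini-Hochberg adjustment at 0.05. CPM are TMM-normalised and SEs are of the fitted log2 fold changes.

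Transcript lengths and positions are those of canonical transcripts in GENCODE 44 (GRCh38), matched by symbol, with a length for 97.4% of tested genes. To remove the length trend, the deviation of log2 CPM from each gene's mean over the fitted libraries was taken. In each library it was smoothed on length (lowess, span 0.3) and entered as an offset. Alternatives were DESeq2 1.42.0, limma-voom (limma 3.58.1), other scalings and filters, a replicate block and leaving out each library. The edgeR script was checked on simulated data. Promoter sequences are from RefSeq (GRCh38.p14), which had a window for 57 members.

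The genes named are MUC1, every member past the threshold, every member at a mean of 10 CPM or more, the most abundant tested member of each role, and in each supporting list up to 3 called genes of smallest p or, with none, the most abundant gene. The marker lists count among the supporting lists. LOX, CD68, VIM and other genes outside this rule were named after their values were seen. The members and lists were chosen with earlier results of these data known, so no list was tested. Nothing in the labels says that replicates are separate cultures, so p-values measure the spread between these samples, which may be technical. Between 10888704 and 14137678 reads were counted per library, and 3 reads equal 0.189 to 0.316 CPM. Intervals and limits from reads cover counting error only. Some members and markers enter the counts and are not reported singly here.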

Additional observations from a re-analysis of the deposited data

How the results depend on the processing

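The 12 members called became 19 in DESeq2, and among all genes 1251 became 3042. Receptor genes called numbered 7 in DESeq2, 5 with the length trend removed and 1 with a filter of 5 CPM in 2 libraries, against 3. All genes called numbered 606 with library size only (148 higher, 458 lower, at a median of -0.41 over all genes) and 1899 with the length trend removed (992 higher, 907 lower), against 1251 (689 higher, 562 lower). With library size only, COL13A1, ITGB2, LAMA3 and LAMA5 were no longer called. The labels state no pairing of the libraries. Across genes the difference of neg replicates 1 and 3 correlated with that of pos replicates 1 and 3 at r = -0.47. This cannot show whether libraries were paired, since pos replicate 3 also differed in its trend with length. With a replicate block 1 member (COL6A3), 1 matrix gene and 0 receptor genes were called, with 88 or 87 of all genes on 4 or 5 libraries, and with the length trend removed as well 5 members, 3 matrix genes and 416 of all genes. A crossed block, added after the data were seen, joined neg replicate 1 with pos replicate 3 and neg replicate 3 with pos replicate 1. It called 7 receptor genes and 3054 of all genes, from a pairing that the labels do not give. Leaving out 1 library gave 0 to 37 members, 0 to 23 matrix genes, 0 to 14 receptor genes and 0 to 8819 of all genes. The counts of 0 came on leaving out any 1 neg library (3033, 2510 and 2607 genes at an unadjusted p under 0.05 without neg replicate 1, 2 and 3), and the highest counts came without pos replicate 1, where the lone pos library is assumed to vary like neg. With the length trend removed and pos replicate 1 or 3 left out, 27 and 28 members, 17 and 18 matrix genes, 10 and 10 receptor genes and 7212 and 4998 of all genes were called. The median of matrix genes was -0.23 with the length trend removed, -0.24 with the block as well, -1.09 to -0.60 on leaving out 1 library (-1.09 without pos replicate 1) and -0.26 after length correction without pos replicate 1, against -0.68, and that of receptor genes was -0.14 and -0.20 in the first 2 of these and -1.04 to -0.42 on leaving out 1 library, without pos replicate 1 and 3, against -0.74. Among the named genes the sign of the log2 fold change turned with the length trend removed, and with the block as well, for COL16A1 (0.23 and 0.10), COL18A1 (0.42 and 0.44), COL7A1 (0.33 and 0.26), ITGA7 (0.014 and 0.030), LAMB2 (0.087 and 0.015) and LAMC1 (0.034 and 0.038). Leaving out a pos library, with or without the length trend, turned it for COL16A1 (0.0085 and 0.81, against -0.80 without pos replicate 3), COL18A1 (0.053 to 0.72), COL6A1 (0.19), COL7A1 (0.83), COL9A3 (0.0090, against -0.64 without pos replicate 3), ITGA3 (0.41), ITGA7 (0.23), ITGAV (0.14), ITGB4 (0.33), LAMA5 (0.19), LAMB1 (0.043), LAMB2 (0.48), LAMC1 (0.14), VWF (0.14) and ITGB6 (-0.61, against 0.55 without pos replicate 3). The log2 fold change of ITGB6 was also at -0.020 in limma-voom, -0.19 with library size only and -0.041 and -0.039 with the block on 4 and 5 libraries. Of the other tested members, length correction turned COL27A1 (0.59) and COL8A1 (0.088), and leaving out a library turned COL27A1 (0.31), COL8A1 (0.21), COL9A2 (0.093), ITGA1 (0.045), COL2A1 (-0.032) and LAMA2 (-0.30 without pos replicate 1, -0.074 without neg replicate 1). None of these sign changes concerned a gene called by edgeR in all 5 libraries, other than LAMA5. The causes were not tested.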
